A study of Homo sapiens with 30 samples.

Results

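The response of the diffuse large B-cell lymphoma line HT to doxorubicin was described over 13593 genes, those that reached an FPKM (fragments scaled to gene length and library size) of 1 in 3 or more of the 6 HT libraries, of 60656 genes in the table. The lines OCI-LY3, OCI-LY19 and SUDHL5 were treated alike, and a sensitive and a resistant form of OCI-LY19 make up the rest of the 30 libraries. The treated HT cells had been in 0.2 µM doxorubicin for 24 h (3 libraries) and the untreated HT cells were taken at 0 h (3 libraries), both with the genotype WT in the labels. By the series' design text, the libraries of a group came from independent experiments. Titles of treated and untreated libraries alike carry the word ctrl, which no label explains. No untreated library at 24 h is analysed here, so that the drug and a day of further culture cannot be told apart in any change given here.

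Doxorubicin is an anthracycline that intercalates into DNA and traps topoisomerase II on broken strands. Cells answer such breaks through the ATM and ATR kinases and, where p53 works, through p53 target genes that hold the cell cycle or start apoptosis. Non-canonical NF-kB runs from the kinase NIK through IKK-alpha to the p52 and RelB subunits, and is used by B cells downstream of BAFF and CD40. Glycolytic enzymes are shared targets of MYC and of the hypoxia-inducible factors. Enzymes of cholesterol and fatty acid synthesis are induced by SREBP factors, which stay in the endoplasmic reticulum while sterols hold INSIG proteins on their escort SCAP.

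Reads assigned to genes numbered 16067396, 38337832 and 29498517 in doxorubicin replicates 1, 2 and 3, against 21785417, 25940038 and 30749582 in untreated replicates 1, 2 and 3, as recovered from the steps of the deposited values. Below, 3 values for a group stand in the order of replicates 1, 2 and 3. The first principal component held 59.5% of the variance and put doxorubicin replicates at 23.8, 11.5 and 28.7 and untreated replicates at −23.8, −22.5 and −17.8. Doxorubicin replicate 2, the deepest library, therefore lay nearest to the untreated side. Of 20 B cell markers 19 passed the filter on level, and FCER2 stayed at 0.0106 FPKM or less. CD79A, one of the 19, had 448, 454 and 461 FPKM after doxorubicin, against 637, 614 and 650 FPKM untreated. Summed FPKM of 9 myeloid markers stayed between 0.0861 and 0.212 after doxorubicin, against 0.161 to 0.354 untreated. The sum over 13 stromal, epithelial and endothelial markers was 0.21 to 0.233 after doxorubicin, against 0.0857 to 0.25 untreated. The 11 T and NK cell markers summed to 2.24 to 2.69 FPKM after doxorubicin, against 0.764 to 1.27 untreated. Of these, NKG7, a granule membrane protein, had 2.09, 1.93 and 1.66 FPKM after doxorubicin, against 0.498, 0.544 and 0.353 FPKM untreated, while the T cell receptor chains CD3D, CD3E and CD3G reached at most 0.0691 FPKM in any library. In a bulk library, fewer cells with a transcript and less of it per cell cannot be told apart.

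Of the 13593 genes, 2651 (19.5%) were higher and 1162 (8.55%) lower after doxorubicin at an adjusted p below 0.05 (limma on log2(FPKM + 1), Benjamini-Hochberg over all genes). With replicate numbers as a block, which pairs same-numbered libraries, 3376 genes (24.8%) were higher and 1684 (12.4%) lower. All fits below that leave out a single library were made without the block. In these, 1487 were higher and 608 lower without doxorubicin replicate 1, and 1250 and 428 without untreated replicate 1. Without untreated replicate 2 the counts were 1643 and 652. All 3 doxorubicin libraries lay above all 3 untreated ones for 4282 genes (31.5%) and below them for 2082 (15.3%). A lack of overlap, given below for named genes, thus held for 46.8% of all genes. It was also required of the 15 largest rises and 15 largest falls, so for those genes it is a condition and not a result. Counts of called genes in every list below are to be read against the 19.5% of all genes higher and 8.55% lower. Changes of at least 2-fold on that scale were called for 178 genes upward (1.31%) and 46 downward (0.338%). The members that entered only because all doxorubicin libraries reached 1 FPKM and no untreated one did numbered 309, and 34 entered through the untreated libraries alone. The median change of all genes was 0.07 on the log2 scale. Scaling by the median of ratios moved it to −0.04. The split of calls moved with it, to 1543 higher and 2274 lower, and to 1670 higher and 1513 lower after quantile normalization. No gene called as reported was called in the opposite direction under either. In the plot of change against level the strongest rises reached 2.79 and the strongest falls among well expressed genes −2.01.

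**Figure D1:**
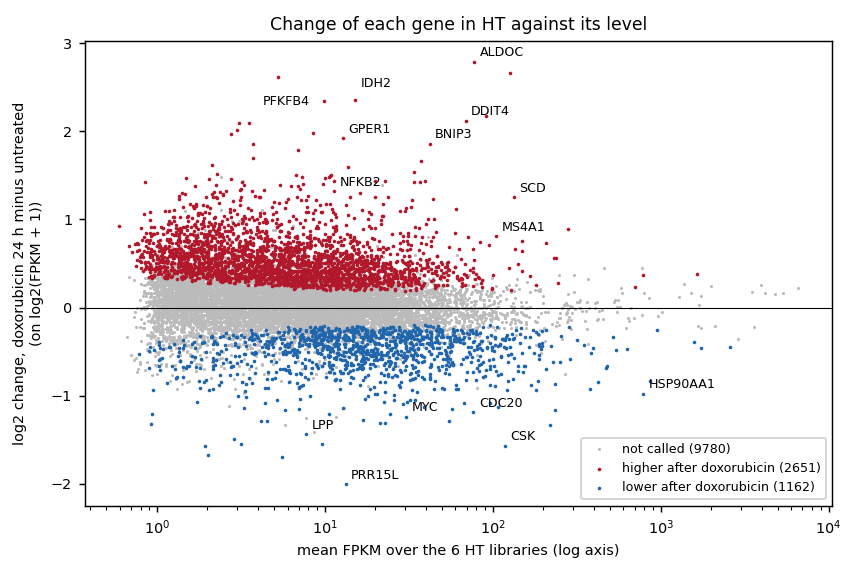
Log2 change of each of the 13593 genes in HT (doxorubicin 24 h minus untreated, 3 libraries each) against its mean FPKM on a log axis. Red points are the 2651 genes called higher, blue points the 1162 called lower and grey points those not called; ALDOC tops the rises and PRR15L lies lowest among the labelled falls.

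The genes of the hypoxia response and of glucose breakdown rose together. Of 21 listed hypoxia response genes outside glycolysis, 15 passed the filter on level, 13 of these rose and 1 fell, with a median log2 change of 1.12 beside 0.07 for all genes. Of the 13 risers, VEGFA, NDRG1 and EGLN1 passed the filter only through the doxorubicin libraries and so had to differ. The median of 1.12 includes these 3. Of 24 genes for glucose entry, glycolysis and lactate exit, all tested, 17 rose and none fell, with a median of 0.60. Median-of-ratios scaling left 11 risen and 2 fallen hypoxia genes, and 14 risen and 2 fallen glycolytic genes. Without doxorubicin replicate 1, 11 of the 24 glycolytic genes and 10 of the 15 hypoxia genes rose. The hypoxia count was 9 without untreated replicate 1 and 10 without untreated replicate 2.

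The promoters of 3 of the strongest risers are shown, picked because their windows hold ACGTG, the letters that the hypoxia-inducible factors bind. Each is the RefSeq window of GRCh38.p14 from 250 bases before to 50 bases after the start of the gene, read along the gene's strand, with ACGTG on either strand in capitals. The windows are chr17:28576846-28577145 (minus strand) for ALDOC, chr10:131981874-131982173 (minus strand) for BNIP3 and chr10:72273674-72273973 (plus strand) for DDIT4.
ALDOC: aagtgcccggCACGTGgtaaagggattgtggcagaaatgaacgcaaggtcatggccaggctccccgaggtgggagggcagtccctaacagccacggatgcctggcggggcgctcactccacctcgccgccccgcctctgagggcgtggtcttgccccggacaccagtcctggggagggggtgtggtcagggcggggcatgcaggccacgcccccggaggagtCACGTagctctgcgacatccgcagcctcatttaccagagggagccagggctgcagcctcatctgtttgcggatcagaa
BNIP3: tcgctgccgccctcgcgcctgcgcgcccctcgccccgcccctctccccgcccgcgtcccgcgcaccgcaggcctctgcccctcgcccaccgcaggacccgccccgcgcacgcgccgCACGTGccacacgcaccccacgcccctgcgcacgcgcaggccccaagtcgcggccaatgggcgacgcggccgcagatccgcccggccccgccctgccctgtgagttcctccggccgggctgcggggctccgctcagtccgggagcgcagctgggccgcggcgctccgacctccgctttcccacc
DDIT4: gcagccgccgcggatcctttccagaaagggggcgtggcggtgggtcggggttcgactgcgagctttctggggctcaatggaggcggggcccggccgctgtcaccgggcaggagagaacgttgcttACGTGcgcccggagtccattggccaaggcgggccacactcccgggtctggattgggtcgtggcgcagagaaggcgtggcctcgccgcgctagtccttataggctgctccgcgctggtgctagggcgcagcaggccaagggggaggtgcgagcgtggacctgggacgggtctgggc
ACGTG stood in 6 of the 10 hypoxia gene windows that RefSeq gave (60.0%) and in 8 of 21 glycolytic ones (38.1%), against 21.6% of all 27305 windows and 27.9% of the 8671 windows of tested genes. These shares are over tested members of each list whether or not they rose. The glycolytic matches include GAPDH and ALDOA, neither of which was called. The longer E-box CACGTG holds ACGTG on both strands, as in ALDOC and BNIP3, so the 2 motifs overlap. A match is a description of the letters and not a bound site.

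ALDOC, the brain-type aldolase of glycolysis, had 154, 66.9 and 191 FPKM after doxorubicin, against 12.2, 14.5 and 28.8 FPKM untreated (log2 change 2.79 ± 0.44 SE, adjusted p = 0.00686). The groups did not overlap, and doxorubicin replicate 2 was the lowest of its group. PFKFB4, which makes the activator of phosphofructokinase, had 19.3, 9.28 and 23.0 FPKM after doxorubicin, against 2.03, 1.37 and 4.45 FPKM untreated (log2 change 2.34 ± 0.39, adjusted p = 0.00815). Its relative PFKFB3 had 21.1, 17.6 and 22 FPKM after doxorubicin, against 8.49, 8.0 and 12.2 FPKM untreated (1.02 ± 0.16, adjusted p = 0.00632). In both relatives every doxorubicin library lay above every untreated one.

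Log2 changes of most other enzymes along the pathway were under 1. HK1 and HK2, the hexokinases that trap glucose, rose by 0.65 each on the log2 scale (adjusted p = 0.00864 and 0.00997). PFKL and PFKP, subunits of phosphofructokinase, changed by 0.70 and 0.72 (adjusted p = 0.00869 and 0.0115). GPI, PGAM1 and PKM, enzymes further down the pathway, changed by 0.46, 0.66 and 0.56 (adjusted p = 0.0066, 0.00527 and 0.00999). LDHA, which turns pyruvate to lactate, had 268, 234 and 274 FPKM after doxorubicin, against 130, 145 and 200 FPKM untreated (0.73 ± 0.16, adjusted p = 0.0175). Its groups did not overlap, but the adjusted p was 0.0516 to 0.0579 without doxorubicin replicate 1 or 3 or untreated replicate 1 or 2. The transporter SLC2A1 had 15.3, 12.4 and 17.6 FPKM after doxorubicin, against 10.4, 9.84 and 11.2 FPKM untreated (0.47 ± 0.12, adjusted p = 0.0289). This call was lost without each library other than doxorubicin replicate 2 (adjusted p 0.0525 to 0.0888), under median-of-ratios scaling (0.0883) and under quantile normalization (0.0512).

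GAPDH, by contrast, had 1610, 1580 and 1600 FPKM after doxorubicin, against 1740, 1810 and 2090 FPKM untreated (log2 change −0.23 ± 0.09, adjusted p = 0.105, and −0.37 with an adjusted p of 0.034 with median-of-ratios scaling). It was called lower under median-of-ratios scaling (adjusted p = 0.034). ALDOA, the main aldolase of most tissues, was counted at only 0.805 to 3.82 FPKM over the 6 libraries, and values of genes that overlap others are uncertain in these counts.

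DDIT4, an inhibitor of mTORC1, had 116, 79.4 and 141 FPKM after doxorubicin, against 16.2, 22.2 and 39.4 FPKM untreated (log2 change 2.12 ± 0.33, adjusted p = 0.00657). BNIP3, a receptor for mitophagy, had 71.7, 43.5 and 84.5 FPKM after doxorubicin, against 14.7, 13.4 and 24.3 FPKM untreated (1.86 ± 0.29, adjusted p = 0.00662), and its relative BNIP3L changed by 1.43 ± 0.24 (adjusted p = 0.0078). In all 3 genes untreated replicate 3 was the highest of its group and the groups stayed apart. PDK1, which shuts pyruvate out of the citric acid cycle, had 10.4, 7.33 and 13.9 FPKM after doxorubicin, against 3.41, 3.49 and 4.62 FPKM untreated (1.22 ± 0.21, adjusted p = 0.0085). P4HA1, a collagen prolyl hydroxylase, and KDM3A, a histone demethylase, changed by 1.12 and 0.95 (adjusted p = 0.00584 and 0.00866). VEGFA, the vascular growth factor, stood at 2.61, 1.72 and 4.01 FPKM after doxorubicin, against 0.585, 0.657 and 0.622 FPKM untreated, and NDRG1 at 2.91, 1.26 and 2.97 FPKM after doxorubicin, against 0.486, 0.504 and 0.466 FPKM untreated.

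HIF1A itself, the oxygen-regulated subunit whose protein is controlled mainly after translation, fell: it had 27.1, 30.8 and 31.8 FPKM after doxorubicin, against 40.1, 39.4 and 41.2 FPKM untreated (log2 change −0.42 ± 0.07, adjusted p = 0.00951). VHL, which marks it for destruction, had 35.2, 32.3 and 35.0 FPKM after doxorubicin, against 38.6, 37.2 and 42.4 FPKM untreated (−0.20, adjusted p = 0.0819, 0.0437 with replicate numbers as a block, and 0.00782 in a fit over all 4 lines). With median-of-ratios scaling its change was −0.33 (adjusted p = 0.0237). AK4, a mitochondrial adenylate kinase, WSB1, a ubiquitin ligase adaptor, and FUT11, a fucosyltransferase, were not on the list but are among the 15 largest rises. Their log2 changes were 1.6 ± 0.24, 1.66 ± 0.19 and 1.44 ± 0.32 (adjusted p = 0.0058, 0.00309 and 0.0187). The call of FUT11 was lost without doxorubicin replicate 1 or untreated replicate 1 or 2 (adjusted p 0.0566 to 0.0689).

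**Figure D2:**
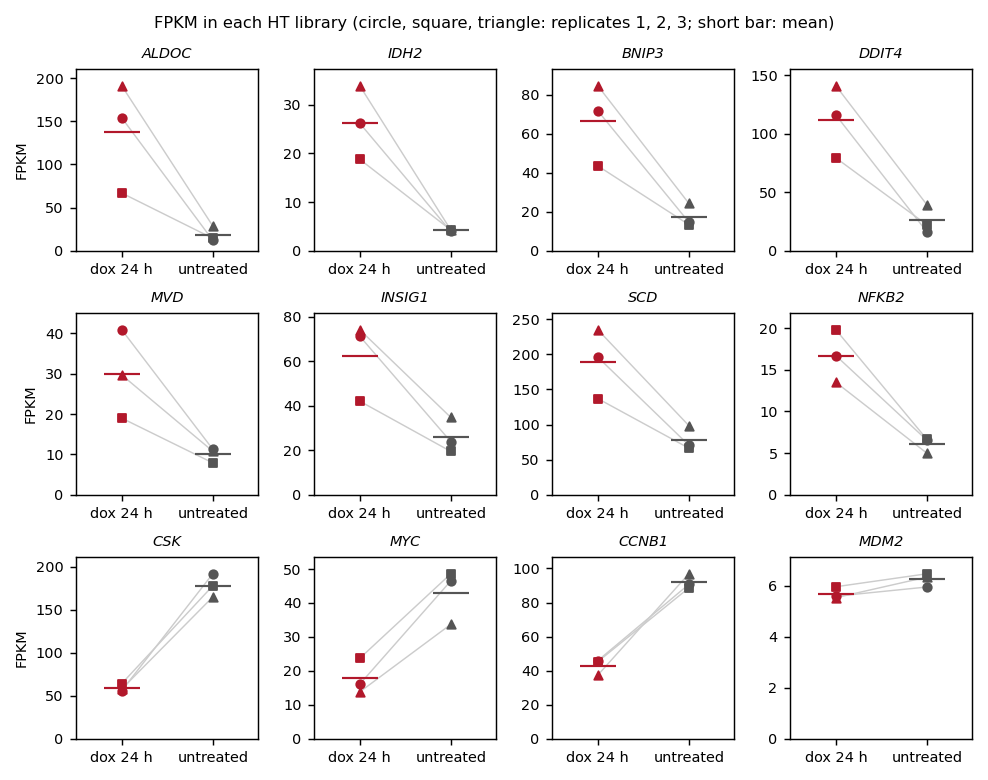
FPKM of 12 genes in each HT library, doxorubicin at 24 h on the left of each panel (red) and untreated on the right (grey), with replicates 1, 2 and 3 as circle, square and triangle, lines joining equal replicate numbers and short bars for means. The groups do not overlap in 11 of the panels, as held for 46.8% of all genes, and in MDM2 they do.

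Genes of sterol synthesis rose as well. Of 20 enzymes of the pathway, all tested, 16 rose and none fell, with a median log2 change of 0.79. The count was 12 with median-of-ratios scaling, and 9, 8 and 10 without doxorubicin replicate 1, untreated replicate 1 and untreated replicate 2. Promoters of MVD and DHCR7 are shown because SREBP factors act on such genes together with NF-Y, which binds CCAAT. Capitals mark CCAAT on either strand in chr16:88663042-88663341 (minus strand) and chr11:71448344-71448643 (minus strand) of GRCh38.p14, from RefSeq, each read along the gene.
MVD: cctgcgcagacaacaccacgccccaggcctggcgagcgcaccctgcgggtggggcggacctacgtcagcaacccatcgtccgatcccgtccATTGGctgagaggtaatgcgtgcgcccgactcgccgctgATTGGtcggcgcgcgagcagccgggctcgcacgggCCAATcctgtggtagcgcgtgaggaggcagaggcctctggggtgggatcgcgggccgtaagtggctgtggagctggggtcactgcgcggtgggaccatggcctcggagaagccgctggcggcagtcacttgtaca
DHCR7: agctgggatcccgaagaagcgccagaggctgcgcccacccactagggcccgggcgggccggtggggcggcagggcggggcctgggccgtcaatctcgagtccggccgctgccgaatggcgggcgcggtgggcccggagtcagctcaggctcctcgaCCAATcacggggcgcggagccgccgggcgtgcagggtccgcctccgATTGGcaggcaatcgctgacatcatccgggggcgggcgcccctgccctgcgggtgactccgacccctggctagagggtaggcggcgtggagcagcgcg
CCAAT stood in 12 of 15 sterol enzyme windows (80.0%), against 35.7% of all windows and 38% of those of tested genes. It also stood in 16 of 21 windows of mitosis genes (76.2%), a list in which 12 genes fell and none rose. Here too a match describes letters and not a bound site. A core of the sterol response element, TCACNCCAC on either strand, stood in 0 of the 15 and in 1.15% of all windows, which says only that these letters are not in these windows.

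MVD, which makes isopentenyl diphosphate, had 40.9, 19.0 and 29.7 FPKM after doxorubicin, against 11.3, 7.91 and 10.8 FPKM untreated (log2 change 1.44 ± 0.26, adjusted p = 0.00998). TM7SF2, a sterol reductase, had 16, 13.3 and 14.3 FPKM after doxorubicin, against 4.90, 4.10 and 5.69 FPKM untreated (1.40 ± 0.12, adjusted p = 0.00206). LSS, which closes the sterol rings, and DHCR7, the last enzyme to cholesterol, changed by 1.18 ± 0.19 and 1.11 ± 0.18 (adjusted p = 0.00729 and 0.00708). IDI1, the isomerase next to MVD, changed by 1.01 (adjusted p = 0.00906). In each of these 5 genes every doxorubicin library lay above every untreated one. HMGCS1, an early enzyme of the pathway, had 62.7, 39.5 and 58.4 FPKM after doxorubicin, against 24.1, 23.3 and 33.6 FPKM untreated (0.95 ± 0.20, adjusted p = 0.0159). The adjusted p of HMGCS1 was 0.0506 to 0.0616 without doxorubicin replicate 1 or untreated replicate 1 or 2.

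Of 15 genes of sterol sensing, uptake and export, 12 were tested, 6 rose and 1 fell (median 0.41). INSIG1, the retention protein that is itself an SREBP target, had 71.3, 42.1 and 74.2 FPKM after doxorubicin, against 23.9, 19.5 and 34.8 FPKM untreated (log2 change 1.23 ± 0.27, adjusted p = 0.0172). Without doxorubicin replicate 1 or 3 or untreated replicate 1 or 2 its adjusted p was 0.0513 to 0.0629. STARD4, a sterol carrier, changed by 1.17 ± 0.21 (adjusted p = 0.00971). MYLIP, a ubiquitin ligase, also rose, with 17.2, 12.3 and 18.9 FPKM after doxorubicin, against 5.45, 5.25 and 4.52 FPKM untreated (1.48 ± 0.15, adjusted p = 0.00273). SCAP, the SREBP escort, was the member that fell, with 17.6, 19.0 and 18.2 FPKM after doxorubicin, against 32.1, 30.5 and 26.5 FPKM untreated (−0.67 ± 0.08, adjusted p = 0.00405). The factors themselves were not called: SREBF1 differed by 0.21 (adjusted p = 0.0773, and 0.0305 with the replicate block) and SREBF2 by 0.22 (adjusted p = 0.156, and 0.035 in a fit over all 4 lines). ABCA1 and ABCG1, sterol exporters, were below the filter, at 0.0611 FPKM or less in every library.

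Of 13 fatty acid genes, 10 were tested, 6 rose and none fell (median 0.42), and 3 rose without untreated replicate 1 or 2. SCD, the desaturase that makes oleate, had 196, 137 and 235 FPKM after doxorubicin, against 70.6, 66.4 and 98.5 FPKM untreated (log2 change 1.25 ± 0.22, adjusted p = 0.00948). ACLY, which supplies cytosolic acetyl-CoA, had 118, 94.9 and 105 FPKM after doxorubicin, against 60.1, 63.1 and 65.9 FPKM untreated (0.74 ± 0.09, adjusted p = 0.00392). FADS1 stood lower, at 3.22, 3.26 and 3.49 FPKM after doxorubicin, against 1.2, 1.37 and 1.63 FPKM untreated (0.85 ± 0.10, adjusted p = 0.00327). None of the 3 overlapped between groups, as held for 46.8% of all genes. The map of metabolic genes by library shows the sterol panel paler in doxorubicin replicate 2 than in replicates 1 and 3.

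**Figure D3:**
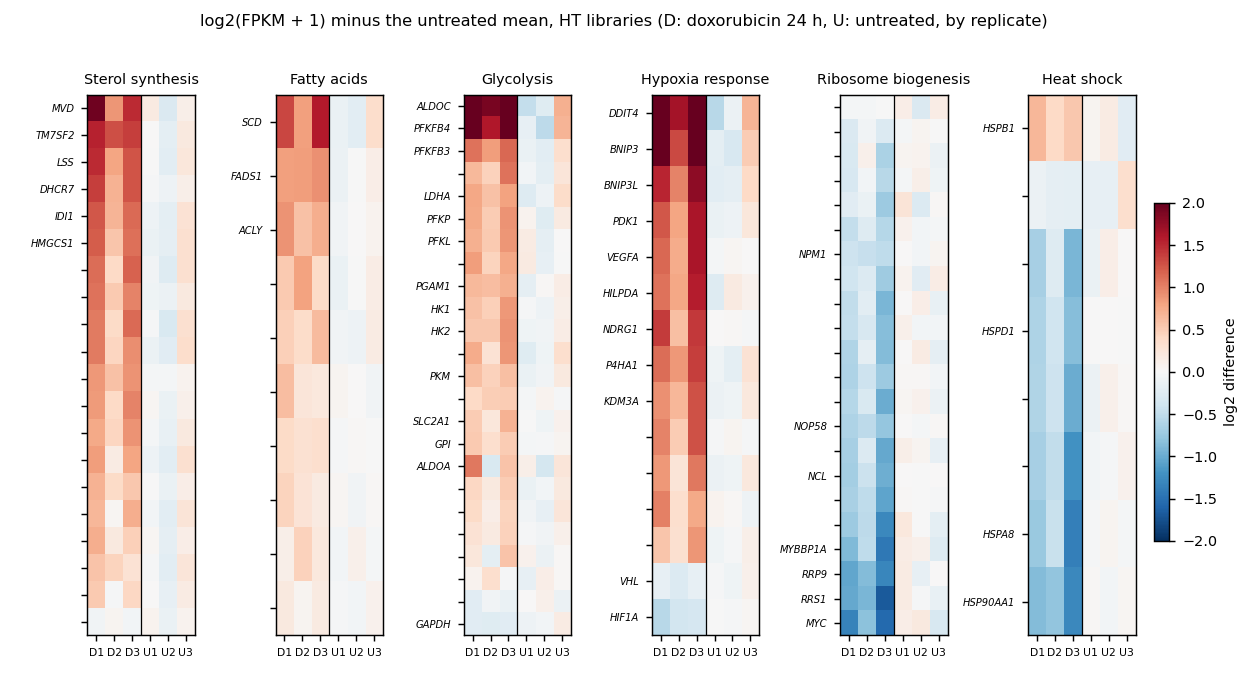
Log2(FPKM + 1) of each gene minus its untreated mean, in doxorubicin replicates 1 to 3 (D1 to D3) and untreated replicates 1 to 3 (U1 to U3), for 6 gene lists; red is above and blue below the untreated mean, with colours capped at 2 and −2 and names on part of the genes. Sterol, glycolytic and hypoxia genes are red in most doxorubicin columns, and ribosome biogenesis and heat shock genes are blue.

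In the citric acid cycle the largest change was that of IDH2. This mitochondrial NADP-dependent isocitrate dehydrogenase had 26.2, 18.8 and 33.9 FPKM after doxorubicin, against 3.99, 4.27 and 4.28 FPKM untreated (log2 change 2.36 ± 0.19, adjusted p = 0.00206), and the groups lay far apart. Its cytosolic relative IDH1 had 15.4, 12.3 and 13.9 FPKM after doxorubicin, against 10.2, 10.1 and 12.4 FPKM untreated (0.32 ± 0.11, adjusted p = 0.0683, 0.0477 with the replicate block and 0.00346 in a fit over all 4 lines). Of 22 enzymes of the cycle and of hydroxyglutarate, all tested, 10 rose and none fell, with a median of 0.23. The count was 6 without doxorubicin replicate 1 or untreated replicate 2, and 6 risen with 2 fallen under median-of-ratios scaling. ACO1, the cytosolic aconitase, SUCLG2, a succinyl-CoA ligase subunit, and OGDH, the oxoglutarate dehydrogenase, changed by 0.81, 0.79 and 0.50 (adjusted p = 0.00739, 0.00728 and 0.00354). FH, the fumarase, changed by 0.40 (adjusted p = 0.00997). PCK2, the mitochondrial enzyme that makes phosphoenolpyruvate, had 9.43, 9.57 and 12.1 FPKM after doxorubicin, against 3.06, 2.83 and 3.07 FPKM untreated (1.5 ± 0.10, adjusted p = 0.00187). Of the 13 mitochondrially encoded mRNAs, MT-ND6 alone was called (0.38, adjusted p = 0.0359). Its call was lost with median-of-ratios scaling (0.118) and without each single library but doxorubicin replicate 3 (0.0582 to 0.101), and quantile normalization called 2 of the 13. Of 7 pentose phosphate enzymes PGD and TALDO1 were called higher and TKT lower. PGD kept its call without any single library, whereas TALDO1 (0.25, adjusted p = 0.0392) lost it without any one of the 6 (0.0538 to 0.117) and with median-of-ratios scaling (0.311). TKT (−0.27, adjusted p = 0.0238) lost it without doxorubicin replicate 1 or any untreated replicate (0.0601 to 0.083).

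The subunits of non-canonical NF-kB rose while its upstream kinase and adaptor were not called. NFKB2, the precursor of p52, had 16.7, 19.8 and 13.5 FPKM after doxorubicin, against 6.55, 6.66 and 4.99 FPKM untreated (log2 change 1.32 ± 0.15, adjusted p = 0.00342). RELB, its partner, had 12, 10.1 and 12.7 FPKM after doxorubicin, against 5.24, 4.54 and 3.07 FPKM untreated (1.27 ± 0.16, adjusted p = 0.00437). BIRC3, which helps to degrade NIK, had 56.3, 67.1 and 42.7 FPKM after doxorubicin, against 25.6, 31.6 and 23.1 FPKM untreated (1.01 ± 0.18, adjusted p = 0.00911). In these 3 genes the groups were apart. MAP3K14, which encodes NIK, had 8.91, 11.7 and 7.31 FPKM after doxorubicin, against 8.0, 8.82 and 5.81 FPKM untreated (0.27 ± 0.19, adjusted p = 0.323, and 0.0349 with the replicate block). TRAF3, the adaptor that leads NIK to degradation, differed by −0.05 (adjusted p = 0.778). The list of 18 non-canonical genes had 14 tested, 5 risen and 1 fallen, with a median of 0.25. The other risers were BIRC2 and TNFRSF17, and the member that fell was TNFRSF13C, the BAFF receptor. TNFRSF17, the receptor BCMA, had an adjusted p of 0.0491, and lost its call with the replicate block (0.0538) and without each library but doxorubicin replicate 2 (0.0797 to 0.129). The list had 3 risers without doxorubicin replicate 1 or without any 1 of the untreated libraries.

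On the canonical side 8 of 20 genes rose (40.0%, against 19.5% of all genes) and IKBKB, a kinase that activates the pathway, fell (median 0.20). With median-of-ratios scaling 4 rose, and 4 without untreated replicate 1. NFKBIA, the inhibitor that holds NF-kB in the cytosol, had 13.2, 13.4 and 13.2 FPKM after doxorubicin, against 5.65, 5.63 and 5.80 FPKM untreated (log2 change 1.09 ± 0.06, adjusted p = 0.00153). CYLD, a deubiquitinase of the pathway, changed by 0.65 ± 0.08 (adjusted p = 0.00342). TNFAIP3, the A20 editing enzyme, and BCL3, a nuclear cofactor of p50 and p52, changed by 1.02 and 1.13, each from values near or under 1 FPKM untreated and at 2.34 to 3.04 FPKM after doxorubicin. Both passed the filter through the doxorubicin libraries alone. Of the 21 NF-kB targets listed, 7 were tested, and CD83, ICAM1 and TRAF1 rose. CD83 (0.59, adjusted p = 0.0289) lost its call with quantile normalization (0.0617) and without each library but doxorubicin replicate 3 (0.058 to 0.0884). Without doxorubicin replicate 3, 3 targets rose and 1 fell. ICAM1, an adhesion molecule, and TRAF1, a signal adaptor, changed by 0.80 and 0.63 (adjusted p = 0.00409 and 0.00342). IL6, CCL22 and 11 further listed targets were below the filter.

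Interferon-stimulated genes formed a small rising set at low levels. Of 28 listed, 13 passed the filter, 11 of these rose and 1 fell (median 0.59), of which 3 risers passed through the doxorubicin libraries alone. Without untreated replicate 1, 7 rose. IFI6, an interferon-induced mitochondrial protein, had 13.8, 8.95 and 11.1 FPKM after doxorubicin, against 2.40, 2.75 and 2.36 FPKM untreated (log2 change 1.79 ± 0.14, adjusted p = 0.00206). STAT2, a subunit of the factor that interferon activates, and ISG15, a ubiquitin-like modifier, changed by 0.59 and 0.57 (adjusted p = 0.00445 and 0.00755). IRF1, which drives such genes, had 3.49, 3.44 and 3.36 FPKM after doxorubicin, against 1.53, 1.54 and 1.56 FPKM untreated (0.80 ± 0.08, adjusted p = 0.00251). ISG20, an RNA exonuclease, was the member that fell (−0.54, adjusted p = 0.00886). No library of MX1 or RSAD2 exceeded 0.0107 FPKM.

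Some genes of antigen presentation rose. HLA-B, a class I heavy chain, had 41.7, 39.7 and 42.6 FPKM after doxorubicin, against 18.8, 17.2 and 20.3 FPKM untreated (log2 change 1.1 ± 0.08, adjusted p = 0.00187). B2M, the shared light chain, had 57.4, 53.4 and 68.7 FPKM after doxorubicin, against 31.0, 29.7 and 36.8 FPKM untreated (0.86 ± 0.12, adjusted p = 0.00498). Neither overlapped between groups, as held for 46.8% of all genes, and reads of related HLA genes can be split by the counting. TAP1, a subunit of the peptide pump, changed by 0.48 (adjusted p = 0.0084). Of 14 class I genes tested 6 rose (42.9%) and none fell, and likewise 6 of 13 class II genes (46.2%), with a median of 0.32 for each list. Of all genes 19.5% were called higher and 8.55% lower. HLA-DPB1, HLA-DQA1 and HLA-DPA1 changed by 0.85, 0.81 and 0.77 (adjusted p = 0.0106, 0.00259 and 0.00901). HLA-DRA had 130, 94.5 and 132 FPKM after doxorubicin, against 76.8, 61.9 and 76.4 FPKM untreated (0.71 ± 0.15, adjusted p = 0.0153, and 0.0519 without doxorubicin replicate 1). CD74, the class II chaperone, had 270, 283 and 277 FPKM after doxorubicin, against 285, 276 and 242 FPKM untreated (0.05 ± 0.08, adjusted p = 0.655).

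B cell identity genes fell more often than they rose: of 20 listed, 19 were tested, 11 fell and 2 rose, with a median log2 change of −0.48. Without doxorubicin replicate 1, untreated replicate 1 or untreated replicate 2, 7 fell. POU2AF1, a B cell coactivator, had 121, 113 and 122 FPKM after doxorubicin, against 239, 190 and 232 FPKM untreated (log2 change −0.88 ± 0.10, adjusted p = 0.00309). PAX5 and EBF1, factors that set B cell fate, changed by −0.71 and −0.54 (adjusted p = 0.00684 and 0.00443). The surface proteins CD37 and CD79A changed by −0.66 and −0.48 (adjusted p = 0.00437 and 0.00475). MS4A1, which encodes the rituximab target CD20, went the other way, with 139, 121 and 142 FPKM after doxorubicin, against 75.8, 78.9 and 73.3 FPKM untreated (0.81 ± 0.08, adjusted p = 0.00251). CD72, an inhibitory co-receptor at low level, also rose (0.80 ± 0.13, adjusted p = 0.0074). IGLL1, a surrogate light chain component, had 130, 156 and 153 FPKM after doxorubicin, against 326, 311 and 344 FPKM untreated (−1.16 ± 0.09, adjusted p = 0.00206). IGLL1 was not called with the spread of all 4 lines (adjusted p = 0.065).

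Among 18 tested kinases and brakes of the B cell receptor, CD72, PIK3CD and PIK3AP1 rose and CSK, BTK, PTPN6 and BLNK fell. CSK, which holds SRC-family kinases inactive, had 56.0, 64.2 and 57.9 FPKM after doxorubicin, against 192, 178 and 165 FPKM untreated (log2 change −1.57 ± 0.08, adjusted p = 0.00153). Each doxorubicin library was far below each untreated one. LYN, the kinase that CSK controls in B cells, had 39.6, 41.4 and 40.7 FPKM after doxorubicin, against 45.5, 41.1 and 46.0 FPKM untreated (−0.12 ± 0.07, adjusted p = 0.216, and 0.0419 with median-of-ratios scaling). PTPN6, the SHP-1 phosphatase, had 24.6, 29.2 and 17.3 FPKM after doxorubicin, against 41.5, 35.3 and 36.0 FPKM untreated (−0.67 ± 0.18, adjusted p = 0.0303). Its adjusted p was 0.0645 to 0.102 without doxorubicin replicate 1 or any 1 untreated library. Of these 18 genes 1 fell without doxorubicin replicate 1, untreated replicate 1 or untreated replicate 2, and 2 fell without untreated replicate 3. Of 14 germinal center genes tested, BCL6, ELL3, SERPINA9 and MEF2B fell and EZH2 rose. In that list 1 gene fell without untreated replicate 1, and 2 fell without doxorubicin replicate 1 or untreated replicate 2 or 3. BCL6, the repressor that maintains that state, had 53.2, 63.5 and 67.1 FPKM after doxorubicin, against 127, 128 and 138 FPKM untreated (−1.09 ± 0.10, adjusted p = 0.00214). EZH2, a histone methyltransferase, was the member that rose (0.37, adjusted p = 0.00691).

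MYC and the factors that build ribosomes fell together. MYC had 16.1, 23.7 and 13.8 FPKM after doxorubicin, against 46.5, 48.6 and 33.7 FPKM untreated (log2 change −1.24 ± 0.21, adjusted p = 0.0085), without overlap. Of 23 listed genes, 22 were tested, 15 fell and none rose, with a median of −0.57. The count was 19 with median-of-ratios scaling, and 9 and 8 without doxorubicin replicate 1 and untreated replicate 1. RRP9 is shown because MYC with MAX binds CACGTG, set in capitals in its RefSeq window chr3:51941855-51942154 (minus strand, GRCh38.p14).
RRP9: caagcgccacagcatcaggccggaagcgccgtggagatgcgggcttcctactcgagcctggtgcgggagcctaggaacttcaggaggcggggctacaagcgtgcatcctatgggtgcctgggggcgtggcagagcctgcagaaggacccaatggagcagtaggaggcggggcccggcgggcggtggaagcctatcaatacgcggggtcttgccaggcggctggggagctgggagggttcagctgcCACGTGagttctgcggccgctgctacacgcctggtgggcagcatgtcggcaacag
CACGTG stood in 5 of 16 windows of the list (31.2%), against 7.43% of all windows and 10.6% of those of tested genes. RRP9, a component of a small nucleolar particle, had 19.9, 22.5 and 16.3 FPKM after doxorubicin, against 46.8, 37.3 and 42.0 FPKM untreated (−1.07 ± 0.13, adjusted p = 0.00392). RRS1, a factor of the large ribosomal subunit, had 16.2, 17.7 and 9.93 FPKM after doxorubicin, against 38.5, 33.7 and 30.6 FPKM untreated (−1.21 ± 0.20, adjusted p = 0.00794). NOP58, NCL and NPM1, abundant nucleolar proteins, changed by −0.64, −0.70 and −0.46 (adjusted p = 0.00389, 0.0111 and 0.00569). In each of these genes doxorubicin replicates lay below the untreated ones.

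Chaperones fell in the cytosol and in the endoplasmic reticulum. HSP90AA1, the inducible cytosolic HSP90, had 574, 606 and 428 FPKM after doxorubicin, against 1060, 1010 and 1070 FPKM untreated (log2 change −0.98 ± 0.13, adjusted p = 0.00498). HSPD1, the mitochondrial chaperonin, changed by −0.62 (adjusted p = 0.00978). Of 10 heat shock genes listed 8 were tested, 6 fell and HSPB1, a small heat shock protein, rose (0.53, adjusted p = 0.0191), with a median of −0.65. Without untreated replicate 1 or 3, 3 fell, and without untreated replicate 2, 2 fell. The call of HSPB1 was lost in a fit over all 4 lines (adjusted p = 0.0816) and without doxorubicin replicate 1 or 3 or untreated replicate 1 (0.051 to 0.064). HSPA5, the main chaperone of the endoplasmic reticulum, had 114, 155 and 103 FPKM after doxorubicin, against 219, 234 and 254 FPKM untreated (−0.94 ± 0.15, adjusted p = 0.00725). PDIA3, CALR and SDF2L1, which fold or retain secretory proteins, changed by −0.83, −0.69 and −1.1 (adjusted p = 0.00206, 0.0063 and 0.00289). Of 17 folding genes 7 fell and 1 rose. The riser was EDEM1, which sends misfolded glycoproteins to degradation, with 20.6, 20.6 and 26.2 FPKM after doxorubicin, against 12.7, 13.4 and 13.3 FPKM untreated (0.72 ± 0.10, adjusted p = 0.00525). ATF4, the factor of the integrated stress response, fell (−0.45, adjusted p = 0.00602).

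The p53 targets moved in both directions, and MDM2 was not called. MDM2, the p53 ligase that p53 itself induces, had 5.60, 5.97 and 5.54 FPKM after doxorubicin, against 5.96, 6.48 and 6.35 FPKM untreated (log2 change −0.11 ± 0.07, adjusted p = 0.25, and 0.047 with median-of-ratios scaling). CDKN1A, the p21 inhibitor, was below the filter at 0.229, 0.218 and 0.17 FPKM after doxorubicin, against 0.123, 0.167 and 0.163 FPKM untreated. Of 29 genes listed, 22 were tested, 7 rose (31.8%) and BTG2, AEN and TRIAP1 fell (13.6%), with a median of 0.23. The shares of all genes were 19.5% and 8.55%, and 4 listed genes rose without untreated replicate 1. SESN1, among the 7, passed through the doxorubicin libraries alone. DDB2, a sensor of DNA lesions, had 9.56, 7.62 and 10.9 FPKM after doxorubicin, against 4.30, 3.86 and 4.24 FPKM untreated (1.0 ± 0.12, adjusted p = 0.00392). TP53INP1, a cofactor of p53, TP53I3, a quinone oxidoreductase, and XPC, a lesion sensor, changed by 0.96, 0.85 and 0.43 (adjusted p = 0.00251, 0.00221 and 0.00525). BTG2, an antiproliferative factor, had 67.2, 78.7 and 68.6 FPKM after doxorubicin, against 134, 151 and 116 FPKM untreated (−0.89 ± 0.11, adjusted p = 0.0041), and AEN, a nuclease of apoptosis, changed by −0.92 ± 0.15 (adjusted p = 0.00808).

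Other brakes on the cycle were higher. CDKN1B, the p27 inhibitor, had 12.8, 7.99 and 14.8 FPKM after doxorubicin, against 5.85, 6.34 and 6.68 FPKM untreated (log2 change 0.78 ± 0.20, adjusted p = 0.0262). CDKN2C, the p18 inhibitor, had 35.6, 29.9 and 38.6 FPKM after doxorubicin, against 24.3, 21.3 and 25.9 FPKM untreated (0.52 ± 0.11, adjusted p = 0.0165, and 0.0509 with median-of-ratios scaling). The third of 3 called among 4 tested inhibitors was CDKN2D. None of the 3 was called without doxorubicin replicate 1, untreated replicate 1 or untreated replicate 2, and 1 was without doxorubicin replicate 3.

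Part of the mitosis genes fell, and replication genes rose by small amounts. CDC20, the activator of the anaphase ligase, had 49.5, 50.2 and 39.8 FPKM after doxorubicin, against 108, 115 and 97.8 FPKM untreated (log2 change −1.19 ± 0.11, adjusted p = 0.00221). CCNB1, the mitotic cyclin, had 45.9, 45.3 and 37.4 FPKM after doxorubicin, against 90.7, 88.6 and 96.9 FPKM untreated (−1.09 ± 0.09, adjusted p = 0.00206). PLK1 and AURKA, mitotic kinases, and UBE2C, a ubiquitin-conjugating enzyme, changed by −0.90, −0.60 and −0.88 (adjusted p = 0.00165, 0.0035 and 0.00437). CDK1, the kinase that CCNB1 activates, had 103, 99.0 and 111 FPKM after doxorubicin, against 88.3, 91.4 and 99.5 FPKM untreated (0.16, adjusted p = 0.142, and 0.0263 with quantile normalization). Of 26 mitosis genes tested, 12 fell and none rose, with a median of −0.18, and 7 fell in a fit over all 4 lines. Of 33 replication and nucleotide genes, all tested, 15 rose and MCM5 and MCM7 fell, with a median of 0.20. The count of risers was 3 with median-of-ratios scaling, 6 without doxorubicin replicate 1, and 4, 9 and 8 without untreated replicates 1, 2 and 3. TK1, the thymidine kinase, and TYMS, the thymidylate synthase, changed by 0.67 and 0.45 (adjusted p = 0.0119 and 0.00979), while MCM7, a helicase subunit, changed by −0.35 (adjusted p = 0.00971, and 0.0577 with quantile normalization).

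Of 29 tested genes of break repair and checkpoints, 9 rose (31.0%) and MDC1, NBN and XRCC6 fell (10.3%), with a median of 0.23. The shares of all genes were 19.5% and 8.55%. With the replicate block, which called 24.8% of all genes higher and 12.4% lower, 15 rose and 2 fell. Without doxorubicin replicate 1 or untreated replicate 1, 1 fell. BRCA1, EXO1 and FANCD2, which act in recombination and crosslink repair, changed by 0.58, 0.53 and 0.43 (adjusted p = 0.00392, 0.00705 and 0.00528). NBN, of the complex that first binds broken ends, changed by −0.39 (adjusted p = 0.0122). H2AX, the histone variant phosphorylated at breaks, had 41.0, 33.5 and 21.2 FPKM after doxorubicin, against 88.1, 83.7 and 61.6 FPKM untreated (log2 change −1.29 ± 0.24, adjusted p = 0.011). Its groups did not overlap. TOP2A, the topoisomerase that doxorubicin poisons, had 57.2, 57.3 and 64.1 FPKM after doxorubicin, against 66.0, 75.3 and 78.1 FPKM untreated (−0.29 ± 0.09, adjusted p = 0.0443). That call did not hold with quantile normalization (0.116), in a fit over all 4 lines (0.212), or without doxorubicin replicate 1 or 2 or untreated replicate 2 or 3 (0.0908 to 0.129). TOP2B, its relative, differed by 0.19 (adjusted p = 0.267).

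Apoptosis genes changed in both directions. BMF, a BH3-only protein, had 3.46, 4.11 and 3.47 FPKM after doxorubicin, against 0.716, 1.09 and 0.579 FPKM untreated (log2 change 1.39 ± 0.13, adjusted p = 0.00237). APAF1, the apoptosome scaffold, changed by 0.79 (adjusted p = 0.00318). BCL2L11, which encodes the BH3-only protein BIM, had 20.5, 21.2 and 22.9 FPKM after doxorubicin, against 30.6, 29.7 and 32.6 FPKM untreated (−0.51 ± 0.07, adjusted p = 0.00498). In none of these 3 did the groups overlap, as held for 46.8% of all genes. Of 23 pro-apoptotic genes 17 were tested, 6 rose and BAD and BCL2L11 fell (median 0.25), whereas 3 rose and 4 fell with median-of-ratios scaling. Without doxorubicin replicate 1 or any 1 untreated library, 3 rose. MCL1, a survival protein, had 81.9, 85.2 and 78.7 FPKM after doxorubicin, against 90.3, 87.8 and 89.5 FPKM untreated (−0.12 ± 0.06, adjusted p = 0.162, and 0.022 with median-of-ratios scaling).

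Among genes that move or reduce the drug, ABCB1 and ABCG2, the classical efflux pumps, were below the filter at 0.0275 FPKM or less. AKR7A2, an aldo-keto reductase, had 19.6, 16.1 and 25.3 FPKM after doxorubicin, against 7.27, 7.32 and 8.86 FPKM untreated (log2 change 1.26 ± 0.16, adjusted p = 0.00416). NQO1, a quinone reductase and NRF2 target, changed by 0.61 (adjusted p = 0.00692, and 0.0567 in a fit over all 4 lines). Of 19 listed, 12 were tested, ABCC1, CBR1, AKR1B1, AKR7A2 and NQO1 rose (41.7%, against 19.5% of all genes) and MVP fell (median 0.16). With median-of-ratios scaling or without untreated replicate 1, 2 rose, and 3 without each other library but doxorubicin replicate 2. Of 12 tested NRF2 and antioxidant genes 6 rose and none fell (3 with median-of-ratios scaling), among them FTH1, the ferritin heavy chain, which changed by 0.49 (adjusted p = 0.00719). Lysosome genes GAA and NEU1, a glucosidase and a sialidase, changed by 1.0 and 0.86 (adjusted p = 0.0028 and 0.00527), and 8 of 20 in that list rose with none fallen, and 2 fell with median-of-ratios scaling or quantile normalization and 3 without doxorubicin replicate 2.

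The remaining lists are given by their counts, to be read against the 19.5% of all genes called higher and 8.55% called lower. Of 8 topoisomerases and related enzymes TOP2A fell, of 14 histones H2AX fell and H2AJ, which passed the filter through the doxorubicin libraries alone, was called higher, and of 6 plasmablast and activated B cell genes MZB1 fell. Of 7 survival genes BCL2L2, BIRC2 and BIRC3 rose (42.9%), and 1 gene did without untreated replicate 1 or 3 or with median-of-ratios scaling, where 1 fell. The call of BIRC2 was lost in the settings given above. Of 18 ATF4 and amino acid stress genes PHGDH, SESN2, SLC7A11 and PCK2 rose and ATF4 and SLC7A5 fell, with 1, 2 and 2 risers without untreated replicates 1, 2 and 3 and 2 with median-of-ratios scaling. Of 9 immediate early genes FOSB, IER2, NR4A1 and DUSP1 rose, the last 2 passing through the doxorubicin libraries alone, and 7 rose and 1 fell with the replicate block. Without untreated replicate 1 or 3, 2 of them rose. FOSB, an AP-1 subunit, had 2.63, 3.20 and 2.59 FPKM after doxorubicin, against 0.769, 1.06 and 1.04 FPKM untreated (log2 change 0.96 ± 0.11, adjusted p = 0.00344). With no filter on level, when 34286 genes were tested, calls were also lost for LDHA, SLC2A1, FUT11, NDRG1, HMGCS1, INSIG1, HLA-DRA, PTPN6, BLNK, TNFRSF17, ABCC1, MVP, PHGDH, CDKN1B, CDKN2C, CDKN2D, HSPB1 and TOP2A (adjusted p 0.0515 to 0.149). Among others, MT-ND6 (0.355), TALDO1 (0.0738), RAB33A (0.0953), SYT11 (0.0667) and VAMP1 (0.0698) lost theirs too.

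**Figure D4:**
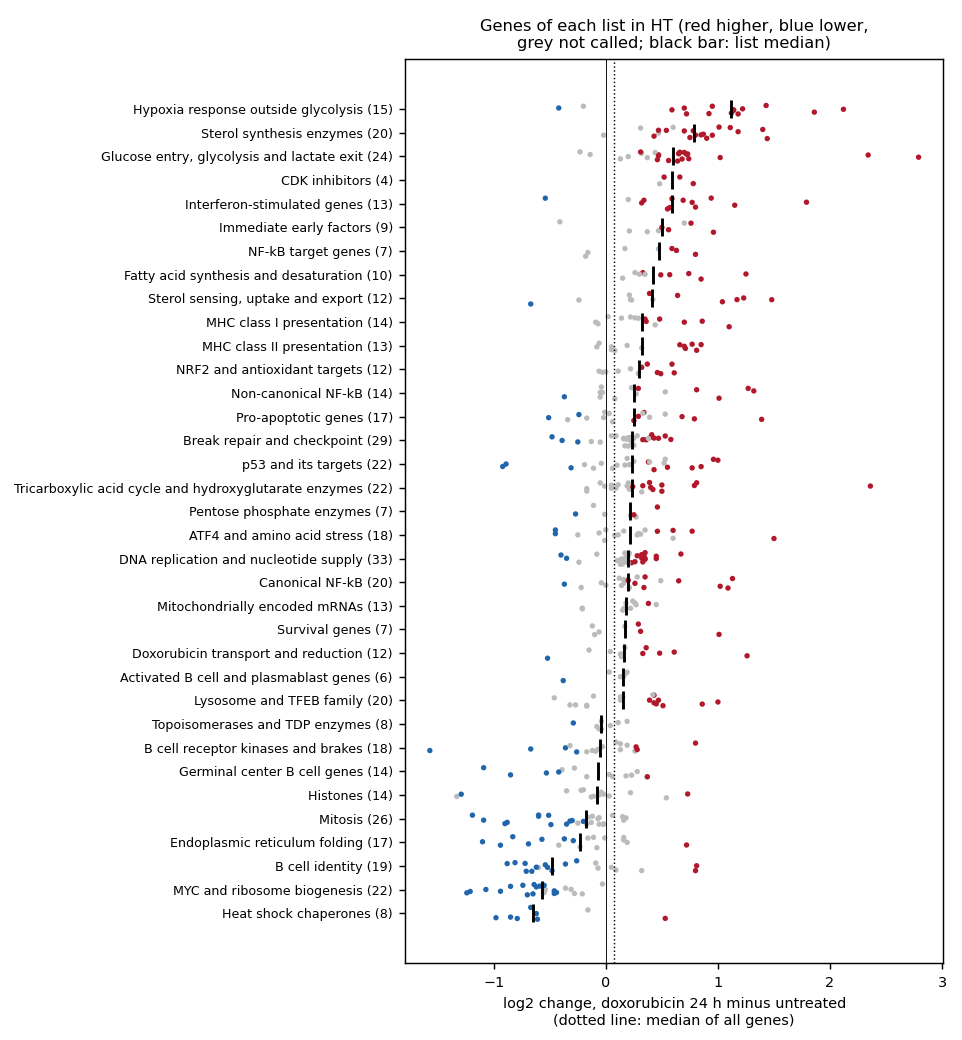
Log2 change of every tested gene of each list with at least 4 tested genes (points; red called higher, blue called lower, grey not called) with list medians as black bars, the number tested in brackets and the median of all genes as a dotted line. Hypoxia and sterol genes lie farthest right and heat shock and ribosome biogenesis genes farthest left.

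Several of the strongest changes belonged to no list. GPER1, a G protein-coupled estrogen receptor, had 27.0, 11.9 and 24.8 FPKM after doxorubicin, against 4.98, 5.12 and 3.67 FPKM untreated (log2 change 1.92 ± 0.29, adjusted p = 0.00604). PTMS had 58.9, 37.0 and 56.4 FPKM after doxorubicin, against 17.7, 11.4 and 21.9 FPKM untreated (1.54 ± 0.26, adjusted p = 0.00789). TMEM54 and EMP3, membrane proteins, changed by 1.51 and 1.49 (adjusted p = 0.00292 and 0.00251). Among the falls, PRR15L had 4.17, 3.58 and 6.34 FPKM after doxorubicin, against 21.7, 16.8 and 27.3 FPKM untreated (−2.01 ± 0.22, adjusted p = 0.00285). LPP, a LIM domain protein of cell adhesions, had 3.02, 4.39 and 3.80 FPKM after doxorubicin, against 11, 10.6 and 13.9 FPKM untreated (−1.44 ± 0.14, adjusted p = 0.00251). SASH3, a lymphocyte adaptor, and RGS19, a regulator of G protein signals, changed by −1.13 and −1.05 (adjusted p = 0.00292 and 0.00206). The rule that chose these 8 genes asked for groups that do not overlap, as held for 46.8% of all genes.

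The change in HT was then set against the mean change of OCI-LY3, OCI-LY19 and SUDHL5 by an interaction contrast over 24 libraries. The contrast shares 1 estimate of spread over lines, while the median SD of a gene on the log2 scale was 0.118 after doxorubicin and 0.0935 untreated in HT, against 0.0686 after doxorubicin and 0.0534 untreated in SUDHL5. Of 17645 genes tested, the change was higher in HT for 2984 (16.9%) and lower for 3101 (17.6%). Among the sterol enzymes it was higher in HT for 18 of 20 and lower for none, and among the glycolytic genes for 20 of 24 and none. The median change of the 20 sterol enzymes was 0.79 in HT, against 0.12 in OCI-LY3, −0.12 in OCI-LY19 and −0.83 in SUDHL5. For the 24 glycolytic genes it was 0.60 in HT, against 0.18, −0.48 and −0.83 in those lines in the same order. Replication genes were higher in HT for 23 of 33 and lower for none, with medians of 0.20 in HT, against 0.49, −0.94 and −0.43. The p53 list went the other way, with a lower change in HT for 19 of 22 and a higher one for 1. Its median change was 0.23 in HT, against 0.32 in OCI-LY3, 2.5 in OCI-LY19 and 1.36 in SUDHL5, so OCI-LY3 stood near HT. MDM2 changed by −0.11 in HT, against −0.20 in OCI-LY3, 3.77 in OCI-LY19 and 1.98 in SUDHL5 (difference −1.96 ± 0.11 SE, adjusted p = 6.48e-10).

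The lines that stood farthest from HT varied from gene to gene. SCD changed by 1.25 in HT, against 0.00 in OCI-LY3, −1.21 in OCI-LY19 and −2.54 in SUDHL5 (difference 2.49 ± 0.20, adjusted p = 4.82e-08). AK4 changed by 1.6 in HT, against 0.03, −0.64 and −1.38 in those lines in the same order (difference 2.26 ± 0.18, adjusted p = 2.85e-08). In both genes OCI-LY3 stood near 0 and the other two lines below it. ALDOC changed by 2.79 in HT, against 2.5 in OCI-LY3, −1.06 in OCI-LY19 and −1.78 in SUDHL5 (difference 2.90 ± 0.46, adjusted p = 8.17e-05), so OCI-LY3 stood near HT there. HILPDA, a lipid droplet protein, changed by 1.14 in HT, against 1.16, 0.07 and −3.07 in OCI-LY3, OCI-LY19 and SUDHL5 (difference 1.76 ± 0.21, adjusted p = 3.78e-06). Its difference was 0.53 without the SUDHL5 libraries (adjusted p = 0.119). PRR15L changed by −2.01 in HT, against 0.10, 0.13 and −0.03 in OCI-LY3, OCI-LY19 and SUDHL5 (difference −2.08 ± 0.17, adjusted p = 4.58e-08). BTG2 changed by −0.89 in HT, against −0.52, 3.90 and 0.87 in the same lines (difference −2.31 ± 0.14, adjusted p = 2.02e-09). POU2F2, a B cell octamer factor, changed by −0.81 in HT, against −0.57, 2.22 and 0.98 (difference −1.68 ± 0.13, adjusted p = 3.3e-08). IL10RA, the ligand-binding chain of the IL-10 receptor, changed by −0.76 in HT, against 0.83, 0.07 and 1.06 (difference −1.42 ± 0.08, adjusted p = 1.18e-09).

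For MYC, CCNB1 and NFKB2 no difference was called. MYC changed by −1.24 in HT, against −2.71, −0.69 and −0.72 in OCI-LY3, OCI-LY19 and SUDHL5 (difference 0.14 ± 0.20, adjusted p = 0.64). CCNB1 changed by −1.09 in HT, against −0.66, −1.89 and −0.91 (difference 0.06 ± 0.22, adjusted p = 0.857). NFKB2 changed by 1.32 in HT, against 1.79, 1.45 and 0.19 (difference 0.17 ± 0.16, adjusted p = 0.442). In these 3 genes the other lines also differed among themselves, and a p above the threshold does not show that they acted like HT.

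**Figure D5:**
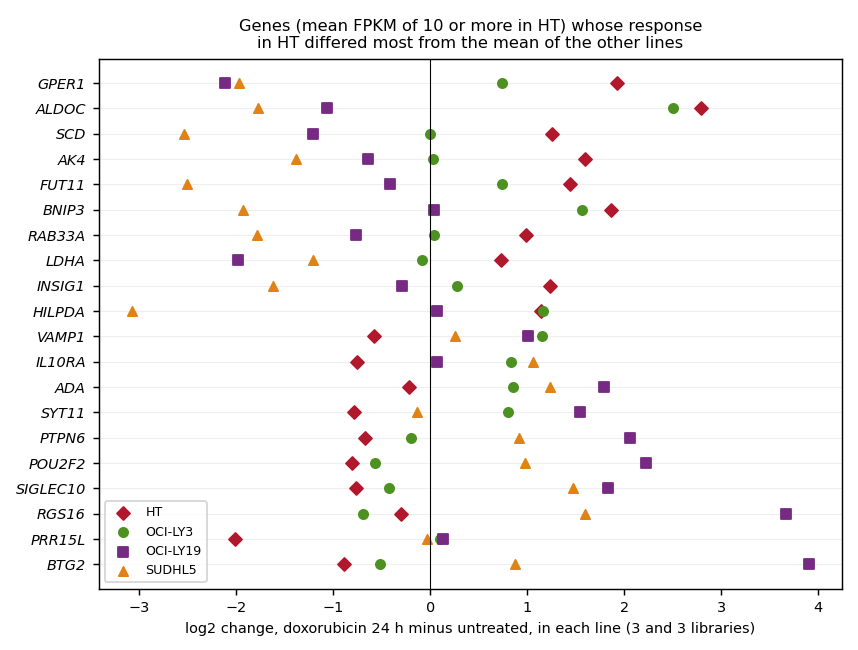
Log2 change (doxorubicin 24 h minus untreated, 3 libraries each) in HT (red diamonds), OCI-LY3 (green circles), OCI-LY19 (purple squares) and SUDHL5 (orange triangles) for the 10 genes with the highest and the 10 with the lowest change in HT relative to the mean of the other lines, among protein-coding genes averaging 10 FPKM or more in HT. SUDHL5 lies far to the left in most of the upper 10 genes and OCI-LY19 far to the right in most of the lower 10.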

How the data were processed

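RNA was sequenced from poly(A) libraries made with a directional kit, per the labels' protocols. The authors trimmed reads with Trimmomatic, aligned them with STAR to hg38 and counted them with featureCounts, per the submitters' processing notes; the sources used here give neither versions nor annotation release nor strand setting. The values deposited by the authors are FPKM per gene and library. Symbols were matched for 60445 of 60656 identifiers. From these values, log2(FPKM + 1) was tested, for genes reaching an FPKM of 1 in 3 or more libraries, with limma 3.58.1 in R 4.3.3 (moderated, trended variance, two-sided, Benjamini-Hochberg, threshold 0.05), for HT on 6 libraries with 4 residual degrees of freedom and against the other lines on 24 libraries with 16. P-values cover the spread between these libraries. The scripts were tested on simulated data. Reads were recovered from the steps of the FPKM values for depth and 1 alternative. Same-numbered HT libraries deviated together (correlations across genes of 0.211, 0.379 and 0.408, all over 0.1), and share a code in the labels, so the replicate numbers pair them. The p-values given are from fits without this pairing unless the replicate block is named. Single libraries were also left out of the unpaired fit. The block kept 2616 of the 2651 higher and 1148 of the 1162 lower calls. INSIG1, FUT11, CDKN2C, CDKN2D and HLA-DRA were among those kept (adjusted p 0.00465 to 0.00568, limma), and TNFRSF17 was not (0.0538).

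Genes, the 38 lists and the tests were chosen with earlier results of these data known. Genes named were the 15 largest rises and falls (protein-coding, called, no overlap, and averaging 10 FPKM or more in whichever HT group was higher), up to 4 called genes per list, a set of key genes, and the 10 largest differences from the other lines in each direction among protein-coding genes at that level. Further list members were named after their values were seen. Alternatives were pseudocount 0.1, no filter or FPKM of 5, median-of-ratios scaling, quantile normalization, a fit of all 8 groups, the replicate block and each replicate left out. Promoter windows came from RefSeq (GRCh38.p14). Some genes of these lists are not reported here by name.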

Additional observations from a re-analysis of the deposited data

Results flagged for a closer look

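Beside the mean of OCI-LY3, OCI-LY19 and SUDHL5, the change in HT was higher for 2984 genes and lower for 3101, each by a test of the difference itself over 24 libraries. The 10 highest and 10 lowest such differences on the log2 scale, among protein-coding genes averaging 10 FPKM or more in HT in whichever group was higher, are given here with no explanation.

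Higher in HT were GPER1 by 3.04, ALDOC by 2.90, SCD by 2.49, AK4 by 2.26 and FUT11 by 2.17. The difference was 1.97 for BNIP3, 1.83 for RAB33A, a small GTPase, 1.82 for LDHA, 1.77 for INSIG1 and 1.76 for HILPDA. A difference from the mean does not set HT apart from each line. BNIP3 changed by 1.86 in HT, against 1.56 in OCI-LY3, 0.04 in OCI-LY19 and −1.93 in SUDHL5, so OCI-LY3 stood near HT, as for ALDOC and HILPDA above.

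The change in HT was lower for BTG2 (−2.31), PRR15L (−2.08), RGS16 (−1.83), a brake on G protein signals, SIGLEC10 (−1.73), an inhibitory receptor of B cells, and POU2F2 (−1.68). It was also lower for PTPN6 (−1.60), SYT11 (−1.53), ADA (−1.51), adenosine deaminase, IL10RA (−1.42) and VAMP1 (−1.39). ADA and RGS16 were not called in HT alone (adjusted p = 0.101 and 0.164, limma), and RGS16 was with the replicate block (0.0227). The change of ADA in HT was −0.22, and it was called lower (−0.35, adjusted p = 0.0341) under median-of-ratios scaling and without doxorubicin replicate 3 (0.0246).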

How the results depend on the processing

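Counts of called genes in HT moved with the processing, and their direction of change did not: no gene called as reported was called the opposite way under median-of-ratios scaling, quantile normalization, the replicate block, all 8 groups or the recovered reads. Called higher were 1599 genes with a filter at FPKM 5 (8197 tested), 1543 with median-of-ratios scaling, 1670 with quantile normalization and 4038 with the spread of all 8 groups. Called lower were 611 genes with no filter (34286 tested), 2274 with median-of-ratios scaling and 3010 with that scaling and the replicate block together, a combination chosen after seeing the data. The replicate block gave 3376 higher and 1684 lower, and of the genes named it changed, beside those given in the report, the call of RGS16 (adjusted p = 0.0227, limma). Leaving out single libraries gave 1250 to 2608 higher and 428 to 1330 lower. In every one of the 6 such fits 1128 higher and 390 lower calls were kept. With recovered reads 2915 were higher and 1297 lower.

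Small changes turned sign: CD74 stood at −0.08 with median-of-ratios scaling, alone or with the block, and between −0.02 and 0.10 with single libraries left out, and TRAF3 between −0.20 and 0.03. The cause was not tested. Against the other lines, counts stayed between 2276 and 3311 higher and 2083 and 3494 lower under all alternatives, and of the 20 genes only HILPDA lost its call. Depth ranged from 16067396 to 38337832 reads, and genes under 1 FPKM were not tested.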

Other observations

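Gene properties that no list used also went with the direction of change. Cut into 4 equal classes, protein-coding genes of the shortest genomic span (0.276 to 12.4 kb) were called higher in 17.2% and lower in 14.2% of cases, and those of the longest span (64.2 to 1250 kb) in 26.9% and 5.16%. The median change was −0.00357 on the log2 scale for the shortest and 0.143 for the longest. RefSeq gave a position for 9604 of the 9718 protein-coding genes. By level, the most abundant of 4 equal classes of genes (mean FPKM 16.1 and more) had 14.2% called higher and 18.3% lower, and the least abundant (0.595 to 2.68) 21.8% and 2.53%. By gene type, 25.8% of 446 long intergenic non-coding RNAs were higher and 7.17% lower, against 16.3% and 6.49% of 1572 antisense genes, 21.5% and 9.29% of 9718 protein-coding genes, and 19.5% and 8.55% of all genes. The filter on level admitted 309 genes only through the doxorubicin libraries and 34 only through the untreated ones. Such genes had to differ in that direction, so the split of calls at low level can be set in part by the filter. Span, level and gene type are linked to each other and to precision, and their part in the calls was not tested.

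CCAAT stood in 16 of 21 promoter windows of mitosis genes (76.2%), against 38% of windows of tested genes.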
